A study of Mus musculus with 8 samples.

Results

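The macrophage and monocyte transcripts are 35 named genes of the 49315 in the count files. They were measured in mouse cultures labelled as OT-I CD8 T cells. OT-I is a transgenic strain whose T cells recognise a piece of ovalbumin. The genes were chosen by name as products of macrophages and monocytes, and partly selected on their measured values, since several had almost no counts in the libraries edited at Carm1. The difference between the groups is therefore given for these genes as a description, with no test. All 35 symbols were found in the files, and all 35 passed the filter on low counts.

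Macrophages and monocytes are phagocytes of the innate immune system. The transcription factor PU.1 (gene Spi1), together with C/EBP factors, sets up their lineage, and the receptor for colony-stimulating factor 1 keeps them alive. They take up antibody-coated particles through Fc receptors, sense microbes through Toll-like and lectin receptors, kill with a phagocyte NADPH oxidase and lysosomal enzymes, and secrete interleukin-1. Several of these genes, among them those of signalling adaptors and integrins, are also used by activated T cells and natural killer cells.

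The study compared 4 libraries from cells nucleofected with a guide RNA against the bacterial gene LacZ (source name Control KO, genotype given as Control KO; WT) with 4 libraries from cells given a guide against Carm1 (source name and genotype Carm1 KO), a gene for an arginine methyltransferase. Per the labels, naive CD8 T cells from spleens and inguinal lymph nodes of OT-I mice were isolated by negative selection, grown with interleukin-15 at 50 ng/ml plus interleukin-7 at 2.5 ng/ml, and collected 7 days after editing. Negative selection removes unwanted cells and leaves those it does not bind. The series text instead describes both arms in co-culture with B16F10 melanoma cells expressing ovalbumin. The labels call the 4 libraries of an arm technical replicates and give no age, number of animals or number of cultures, so spread and p-values cover only these libraries. Effects of the guide and of the preparation cannot be told apart.

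Depth was similar, at 37556330 to 41439998 counts per library. Library pairs within a group differed by 1.45 to 8.92 chi-square units per degree of freedom, except the pair of Carm1-edited replicates 2 and 4, at 13.5. Carm1 itself was at 95.8 ± 1.04 and 32.8 ± 0.493 CPM (CPM is the standard depth-scaled count, here on library sizes scaled by TMM, the trimmed mean of M-values, as mean ± SD with n = 4 in each group here and below, control first). Markers of the labelled cell type were abundant. All 14 CD8 T cell markers were detected and tested, with Cd8a at 1572 ± 13.6 and 1972 ± 5.31 CPM, and the list summed to 8307 to 8500 CPM per control and 9564 to 9807 CPM per edited library. Of 10 melanoma markers, Tyr, Tyrp1, Dct, Sox10 and Slc45a2 had 0 counts in all 8 libraries. The 3 tested, Pmel, Mitf and Slc24a5, were called higher in the edited libraries (edgeR adjusted p under 0.05), as were 44.5% of all genes tested. Their log2 fold changes were 1.885, 1.274 and 0.702. The melanoma list summed to 4.65 to 4.91 and 15.0 to 16.1 CPM. In bulk RNA, fewer cells of a type and less RNA per cell cannot be told apart.

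Of the 35 members, 31 were lower in all 4 Carm1-edited libraries than in all 4 control libraries, Ncf1 and Pld4 were higher in all 4, and Tlr2 and Itgax overlapped. The share of all genes whose groups separated in this way was not counted. The test across all genes called 31 members lower and 3 higher, where 43.2% of the 14970 genes tested were called lower and 44.5% higher (edgeR quasi-likelihood test, Benjamini-Hochberg adjusted p under 0.05). Of all calls, 50.8% were higher. Under upper-quartile scaling 61.0% were, and the median over all genes shifted by 0.215 on the log2 scale. Since the members were picked from this comparison, nothing is read from those counts. The median fitted log2 fold change was -4.89 over the members and 0.02 over all genes tested, whose middle 50% ran from -0.61 to 0.78. The count of members called higher was 2 when control replicate 3 or 4, or Carm1-edited replicate 1, 2 or 3, was left out, and the member lost was Itgax, at a log2 fold change of 0.22 to 0.27 there and 0.29 with all libraries.

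**Figure D1:**
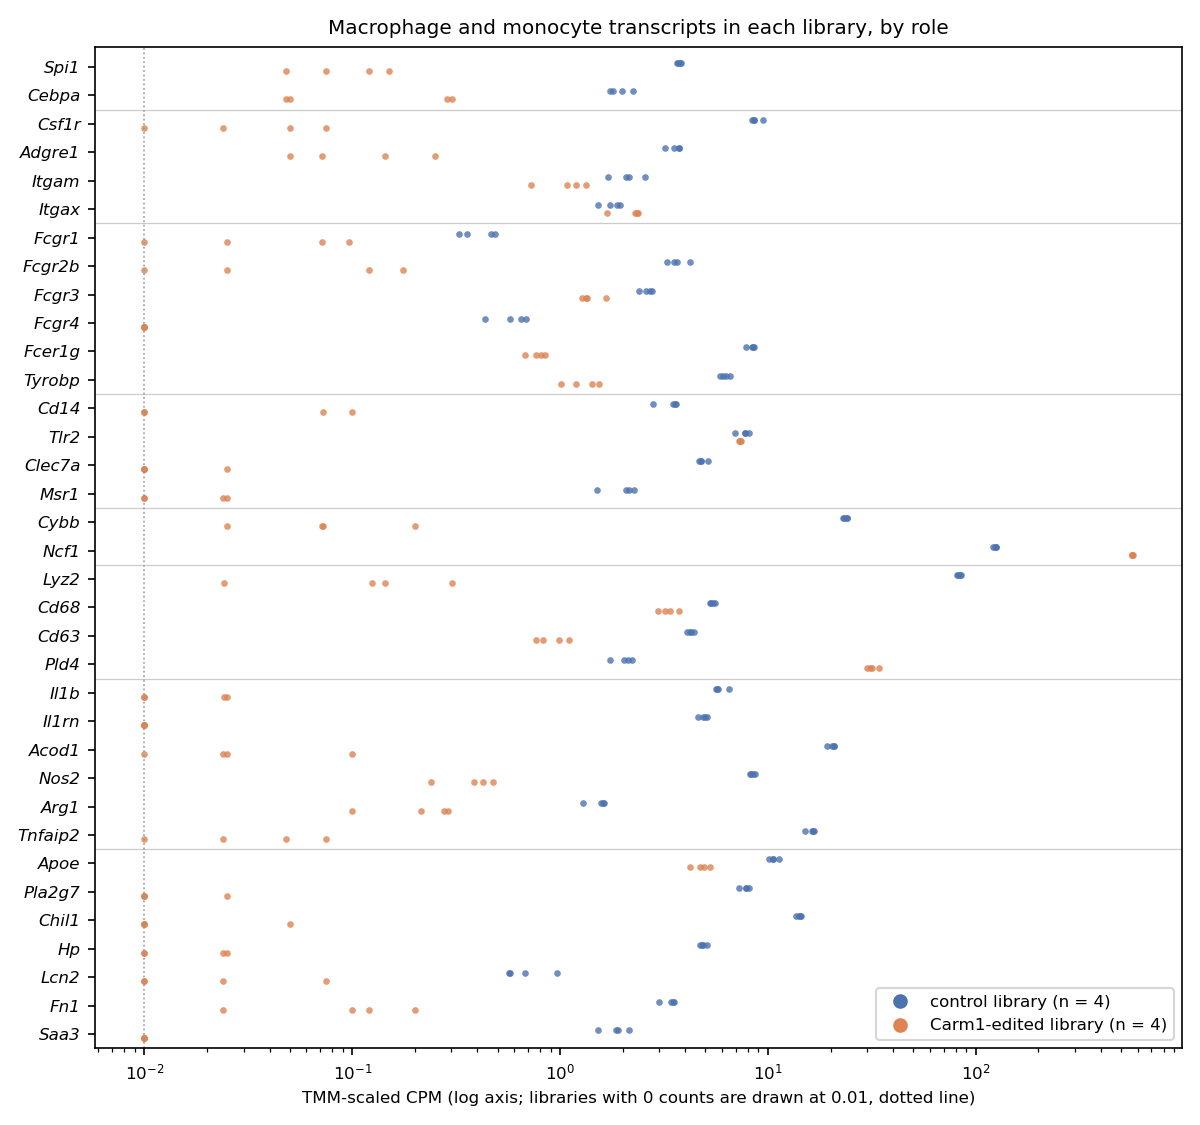
Level of each of the 35 members in each library, in TMM-scaled CPM on a log axis, grouped by role from lineage factors at the top to secreted proteins at the bottom. Blue points are the 4 control and orange points the 4 Carm1-edited libraries, and libraries with 0 counts are drawn at 0.01. The groups overlap only for Tlr2 and Itgax, and the orange points lie to the right of the blue ones for Ncf1 and Pld4.

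The members fell into unequal ranges. The level left in the edited libraries, as a percent of the control level, was under 2% for 15 members, 2% to 5% for 6, 5% to 30% for 6, 30% to 100% for 5 and over 100% for 3. These ranges were set after the values were seen. Intervals on this percent are 95% exact (Clopper-Pearson) and cover counting error only. Where a gene had 0 counts in all 4 edited libraries, its bound is computed from 3 counts over the group.

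**Figure D2:**
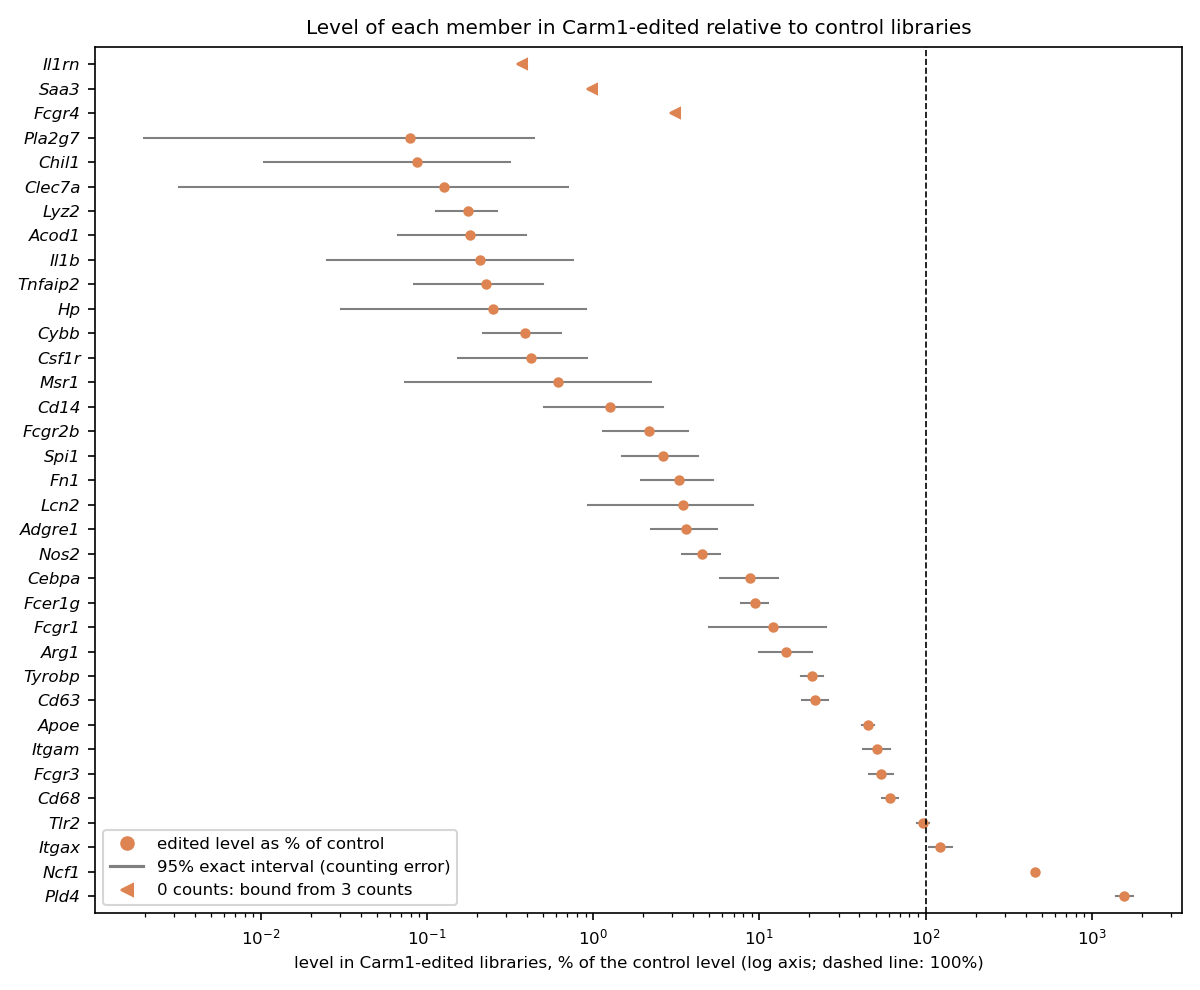
Level of each member in the Carm1-edited libraries as a percent of its control level, on a log axis, ordered from Il1rn at the top to Pld4 at the bottom, with 95% exact intervals for counting error. Triangles mark the bound for the 3 members with no counts in the edited libraries, and the dashed line is 100%. Ncf1 and Pld4 lie to the right of the line, at 457% and 1563%.

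Both lineage transcription factors were low in the controls and lower in the edited libraries. Spi1, which encodes PU.1, had 144, 139, 140 and 136 counts in the control libraries and 2, 5, 3 and 6 in the edited ones. Its level was 3.73 ± 0.0685 and 0.0983 ± 0.0457 CPM, leaving 2.62% (1.49% to 4.30%). Every control library was far above every edited one. Cebpa, which encodes C/EBP alpha, a factor that commits progenitors to the myeloid lineage, had 78, 66, 83 and 64 counts against 12, 2, 2 and 12. Its edited libraries were uneven, with 12 counts in replicates 1 and 4 and 2 in the others. Their variance was 4.76 times that of counting error alone.

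Of Csf1r and Adgre1, surface receptors used to identify these cells, Csf1r kept less. It encodes the receptor for colony-stimulating factor 1 and had 337, 349, 315 and 306 counts in the control libraries against 1, 0, 2 and 3. The level left was 0.421% (0.154% to 0.918%). The gene overlaps Hmgxb3 on the other strand, which had 9342 counts over the control and 4004 over the edited libraries, and libraries of this kind do not keep strand. Adgre1, which encodes the macrophage surface protein F4/80, went from 3.55 ± 0.255 to 0.129 ± 0.0904 CPM, with 3, 6, 2 and 10 counts left.

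The integrin genes Itgam and Itgax behaved differently from these receptors. Itgam encodes CD11b, an integrin chain of myeloid and natural killer cells, and was at 2.12 ± 0.352 and 1.08 ± 0.261 CPM, so 50.9% was left (42.1% to 61.4%). Itgax encodes CD11c, known from dendritic cells and activated T cells. Its counts were 77, 69, 64 and 56 in the control and 96, 98, 95 and 67 in the edited libraries, or 1.77 ± 0.186 and 2.18 ± 0.333 CPM. Edited replicate 4 lay inside the control range and the other edited libraries above it. The 2 genes are neighbours on chromosome 7, from 128062640 to 128118491 and from 128129547 to 128150657, both on the plus strand (mm10).

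Fc receptor genes parted although 3 of them lie close together. These receptors bind the constant part of antibodies. Fcgr4, Fcgr2b and Fcgr3 lie between 170958617 and 171064935 on chromosome 1, and the adaptor gene Fcer1g follows at 171229572 to 171234365 (mm10). Fcgr4, an activating receptor for immunoglobulin G, had 27, 16, 24 and 21 counts in the control libraries and 0 in all 4 edited libraries. It was at least 32.0-fold lower. Fcgr2b, the inhibitory receptor of the family, had 129, 155, 135 and 130 counts against 0, 5, 1 and 7, leaving 2.17% (1.15% to 3.74%). Each edited library was far below each control library, though the share left was above that of the 15 members under 2%.

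Fcgr3, an activating receptor also found on natural killer cells, kept much more of its level. Its counts were 95, 100, 102 and 95 against 56, 69, 51 and 54, and 53.8% was left (45.5% to 63.5%). The intervals of Fcgr2b and Fcgr3 were far apart. Fcgr1, the high-affinity receptor on chromosome 3, had only 12 to 18 counts per control library and 0 to 4 per edited library. Because Fcgr2b, Fcgr3 and Fcgr4 encode similar proteins, some reads could fall to the wrong gene, and the split between them is uncertain.

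The adaptors that carry the signal of these receptors lay in between. Fcer1g encodes the common gamma chain of Fc receptors and had 337, 308, 288 and 312 counts in the control and 34, 32, 34 and 27 in the edited libraries, leaving 9.35% (7.73% to 11.2%). Tyrobp encodes DAP12, an adaptor of myeloid and natural killer cell receptors, and had 233, 241, 232 and 222 counts against 64, 42, 48 and 57. It kept 20.8% (17.9% to 24.2%). Per transcript length the 2 adaptors were alike in the controls, at 23.6 ± 1.26 TPM for Fcer1g and 23.1 ± 0.677 TPM for Tyrobp (counts divided by the deposited gene length, scaled to one sum in every library), a difference within their spread. In the edited libraries Tyrobp was the higher one, at 4.96 ± 0.743 TPM against 2.29 ± 0.266 TPM.

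Of the 4 pattern recognition and scavenger receptors, Tlr2 alone was at a similar level in both groups. Tlr2 encodes a Toll-like receptor for bacterial lipoproteins. It had 274, 284, 299 and 284 counts in the control and 311, 304, 294 and 291 in the edited libraries, or 7.63 ± 0.493 and 7.34 ± 0.0651 CPM. Its fitted log2 fold change was -0.05, or 0.16 under upper-quartile scaling, where it was called higher.

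Clec7a, which encodes the beta-glucan receptor Dectin-1, had 184, 189, 175 and 174 counts in the control libraries and a single count in edited replicate 4. The level left was 0.127% (0.00321% to 0.710%). Cd14, a co-receptor for bacterial lipopolysaccharide, had 141, 128, 133 and 103 counts against 0, 3, 0 and 4. Msr1, a scavenger receptor for modified lipoproteins, was at 2.00 ± 0.344 CPM in the controls, with 2 counts left over the 4 edited libraries. Clec7a, Cd14 and Msr1 were thus at or near 0 in libraries whose Tlr2 level, 7.29 to 7.43 CPM, lay inside the control range of 6.94 to 8.11 CPM.

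The 2 members of the phagocyte NADPH oxidase went in opposite directions. Cybb encodes gp91phox, the catalytic subunit, and Ncf1 encodes p47phox, the cytosolic organiser that joins it on activation. Cybb had 908, 879, 853 and 883 counts in the control libraries and 3, 3, 1 and 8 in the edited ones. That left 0.390% (0.218% to 0.645%) of 23.5 ± 0.542 CPM. Ncf1 went from 4782, 4600, 4600 and 4530 counts to 23562, 23464, 22738 and 22540. Its level was 124 ± 1.79 and 565 ± 2.16 CPM, 4.57-fold higher (4.50 to 4.64). Gtf2ird2 overlaps Ncf1 on the other strand and had 3253 and 7266 counts over the groups, fewer than Ncf1 had in either.

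Promoters are shown for these 2 oxidase genes, which moved in opposite directions, and for Fcgr4 and Pld4, the former with no counts left and the latter with the largest gain. Each runs from 250 bases before to 20 bases after the gene's start in RefSeq (GRCm38.p6), 5′ to 3′ on the gene's own strand. Capitals mark a PU.1-type match (GAGGAA, or the longer GAGGAAGT) or an interferon-response-type match (GAAA, any 2 bases, GAAA), on either strand. RefSeq's start of Cybb lies inside the longer gene model of the annotation that matched the file's IDs. The Cybb promoter (chrX:9469305-9469574, minus strand) has 3 interferon-response-type matches and 1 PU.1-type match, that of Ncf1 (chr5:134229606-134229875, minus strand) 1 interferon-response-type match and no PU.1-type match, that of Fcgr4 (chr1:171018676-171018945, plus strand) 1 of each, and that of Pld4 (chr12:112760405-112760674, plus strand) 1 PU.1-type match.
Cybb: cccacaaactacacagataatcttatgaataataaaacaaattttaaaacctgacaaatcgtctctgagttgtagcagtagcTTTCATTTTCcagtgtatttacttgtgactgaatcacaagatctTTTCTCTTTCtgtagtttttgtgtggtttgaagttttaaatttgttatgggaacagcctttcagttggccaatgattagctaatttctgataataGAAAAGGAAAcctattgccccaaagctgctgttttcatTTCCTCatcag
Ncf1: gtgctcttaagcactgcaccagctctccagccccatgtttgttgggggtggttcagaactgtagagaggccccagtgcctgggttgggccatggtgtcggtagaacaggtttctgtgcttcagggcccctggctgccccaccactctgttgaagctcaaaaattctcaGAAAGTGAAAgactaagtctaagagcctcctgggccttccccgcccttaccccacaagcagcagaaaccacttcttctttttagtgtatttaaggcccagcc
Fcgr4: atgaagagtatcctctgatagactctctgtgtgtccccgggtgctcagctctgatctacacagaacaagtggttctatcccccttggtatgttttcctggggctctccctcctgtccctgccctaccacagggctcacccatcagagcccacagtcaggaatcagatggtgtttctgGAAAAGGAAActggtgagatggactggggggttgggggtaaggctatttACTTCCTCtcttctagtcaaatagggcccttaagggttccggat
Pld4: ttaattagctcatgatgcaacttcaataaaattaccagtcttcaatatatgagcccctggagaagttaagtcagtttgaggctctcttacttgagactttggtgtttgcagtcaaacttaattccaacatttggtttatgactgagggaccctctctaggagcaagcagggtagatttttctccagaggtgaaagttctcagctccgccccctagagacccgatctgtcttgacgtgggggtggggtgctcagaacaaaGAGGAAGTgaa

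Fcgr4 and Pld4 both carry the longer PU.1-type match, one at 0 counts and the other at many times its control level in the edited libraries. The promoters of Il1rn and Saa3, genes also at 0 counts there, had no PU.1-type match. RefSeq gave 31 promoters of 300 bases for 25 of the 35 members. A GAGGAA match, on either strand, was in 15 of the 31 (48.4%) and in 28.3% of all 32851 promoters. The longer form was in 2 of them (6.45%, against 3.2%), and the interferon-response-type match was in 4 (12.9%, against 3.44%). GAGGAA was found in 6 of the 16 promoters of members left at under 5%, and also in promoters of Itgam, Fcgr3, Cd68 and Apoe, which kept 45.0% or more. Some promoters of 1 gene overlap, and GAGGAAGT contains GAGGAA. A match is a description of letters and not a bound site.

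Lysosome and granule genes also split. Lyz2, which encodes lysozyme M and is the usual driver of myeloid-specific Cre lines, had 3221, 3108, 3097 and 3019 counts in the control libraries and 6, 1, 5 and 12 in the edited ones, leaving 0.177% (0.113% to 0.263%). It was the member with the highest level per length in the controls, at 163 ± 0.249 TPM. Its close copy Lyz1 had 3, 4, 8 and 4 counts against 0 in all edited libraries, so few reads were given to that copy.

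Cd68 and Cd63 encode late endosomal and lysosomal membrane proteins that other cells also make. Cd68, often used to stain macrophages, was at 5.41 ± 0.122 and 3.32 ± 0.335 CPM, with 61.5% left (55.0% to 68.6%). Cd63 was at 4.25 ± 0.144 and 0.919 ± 0.153 CPM. Pld4, an endolysosomal nuclease that degrades single-stranded nucleic acid, was 15.6-fold higher (13.9 to 17.6), with 88, 64, 78 and 74 counts in the control and 1433, 1284, 1199 and 1268 in the edited libraries. The groups did not come near each other, and per length Pld4 went from rank 24 to rank 2 among the 35.

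All 6 genes of the interleukin-1 axis and inflammatory metabolism were lower, and their summed level went from 57.1 ± 1.20 to 0.687 ± 0.174 CPM. Il1b, which encodes interleukin-1 beta, had 227, 208, 240 and 209 counts in the control libraries and 0, 1, 0 and 1 in the edited ones. Il1rn, which encodes the antagonist of its receptor, had 197, 188, 180 and 168 against 0 in all 4, at least 267-fold lower. The cytokine and its antagonist were thus both at the floor.

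Acod1, the enzyme that makes itaconate in activated macrophages, had 756, 762, 765 and 748 counts against 1, 0, 1 and 4, leaving 0.182% (0.0665% to 0.395%). Tnfaip2, a gene induced by tumour necrosis factor, had 651, 556, 613 and 597 counts against 1, 2, 0 and 3. Nos2 and Arg1 encode enzymes that compete for arginine and are taken as marks of opposite macrophage states. Nos2, inducible nitric oxide synthase, was at 8.43 ± 0.231 and 0.381 ± 0.102 CPM, with 4.50% left (3.43% to 5.81%). Arg1, arginase 1, was lower to begin with, at 1.52 ± 0.160 and 0.220 ± 0.0860 CPM, with 14.5% left (9.89% to 20.6%). Both were present in all 8 libraries, unlike Il1b or Il1rn.

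Of the secreted and lipid-handling proteins, 7 of 7 were lower. Chil1, a chitinase-like protein of macrophages and neutrophils, had 557, 523, 503 and 530 counts in the control libraries, and the edited ones had 2 counts, both in replicate 4. Pla2g7, which hydrolyses platelet-activating factor, had 319, 289, 288 and 266 counts against a single count in edited replicate 3. Saa3, an acute-phase protein made by macrophages, had 85, 68, 70 and 56 counts against 0 in all 4, at least 101-fold lower. Hp, which encodes the haemoglobin-binding protein haptoglobin, was at 4.88 ± 0.148 CPM in the controls, with 2 counts left. These 4 were at or within a few counts of 0.

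The other 3 had a larger share left, for Lcn2 on few counts. Lcn2, the iron-siderophore-binding protein lipocalin-2, had 38, 21, 25 and 21 counts against 1, 0, 3 and 0. It kept 3.49% (0.934% to 9.21%), an interval that reaches below the bound of Saa3, 0.986%. Fn1, the matrix protein fibronectin, was at 3.35 ± 0.247 and 0.111 ± 0.0723 CPM. Apoe, the lipid carrier apolipoprotein E, was at 10.6 ± 0.520 and 4.78 ± 0.434 CPM and so kept 45.0% (41.3% to 49.1%), more than any other secreted member.

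Within the control group the members varied little. The variance of a member between the 4 control libraries, divided by that of counting error alone, had a median of 0.727 and ran from 0.048 for Spi1 to 2.18 for Msr1. Such a ratio from 4 libraries is imprecise. In order of level per length in the controls, Lyz2 (163 ± 0.249 TPM) and Ncf1 (83.9 ± 0.626 TPM) led, then Fcer1g, Tyrobp and Acod1 (19.2 ± 0.486 TPM). The next in order, Chil1 (12.5 ± 0.440 TPM) and Apoe (12.4 ± 0.625 TPM), did not differ beyond their spread. In the edited libraries the order was Ncf1 (397 ± 14.9 TPM), Pld4 (41.2 ± 1.39 TPM), Cd68 (6.82 ± 0.835 TPM), Tlr2 (6.27 ± 0.207 TPM) and Apoe (5.76 ± 0.567 TPM), of which Cd68, Tlr2 and Apoe lay within about their spread.

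The sum over the members hid this turnover. All 35 members together summed to 404 ± 4.82 CPM per control library and 621 ± 1.76 CPM per edited library. Ncf1 alone made up most of the second sum: without it the totals were 280 ± 3.29 and 56.5 ± 2.07 CPM. As a share of all counts, the 35 members took 0.0379% to 0.0387% of the control and 0.0651% to 0.0664% of the edited libraries.

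The counts left in the edited libraries were uneven between replicates. The 21 members left at under 5% summed to 8181 to 8814 counts in each control library and to 31, 47, 47 and 83 counts in edited replicates 1 to 4. Edited replicate 4 thus held the most, with 15 of the 21 members detected, against 12, 10 and 12. Without edited replicate 4 the share left moved by over 1.5 times for 11 members: from 0.390% to 0.241% for Cybb, from 0.177% to 0.117% for Lyz2, from 2.17% to 1.33% for Fcgr2b, from 1.27% to 0.721% for Cd14 and from 0.421% to 0.278% for Csf1r. It moved from 0.182% to 0.0800% for Acod1, from 0.228% to 0.151% for Tnfaip2, from 0.207% to 0.137% for Il1b and from 0.611% to 0.404% for Msr1, and Clec7a and Chil1 had no counts left. Without edited replicate 3 it moved from 3.49% to 1.16% for Lcn2 and from 0.251% to 0.166% for Hp, and Pla2g7 had none left. No other library moved a member by as much. On library-size-scaled values the sums were 223 to 228 CPM in the controls and 0.741, 1.13, 1.17 and 2.08 CPM in the edited libraries. The part of carry-over between libraries or of a few remaining cells in these counts was not tested.

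**Figure D3:**
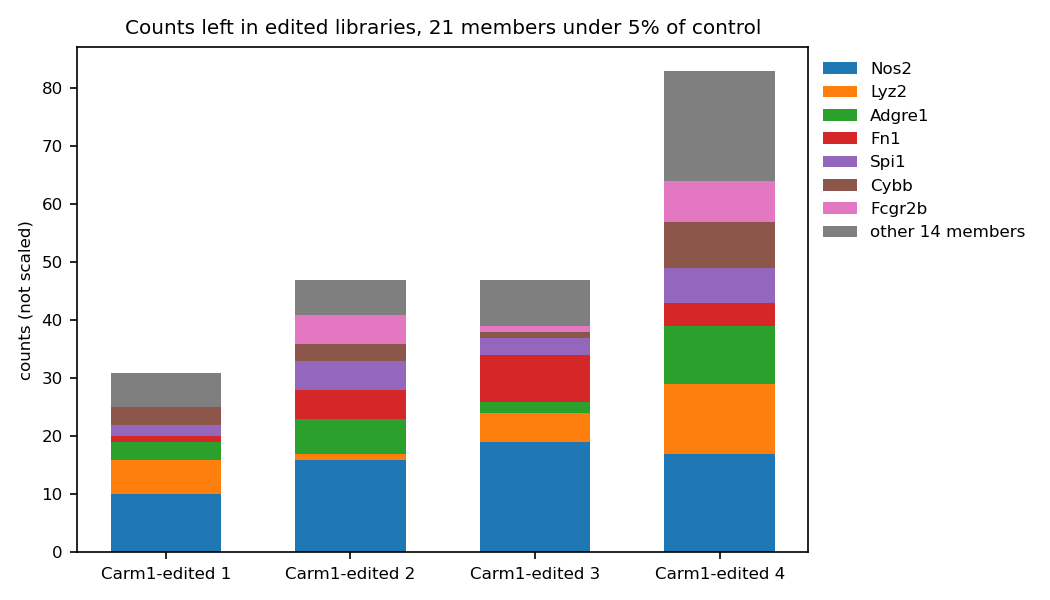
Unscaled counts left in each of the 4 Carm1-edited libraries for the 21 members at under 5% of their control level, stacked by gene, with the 14 members of fewest counts in grey. The bars reach 31, 47, 47 and 83 counts, with Nos2, Lyz2 and Adgre1 the largest parts.

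Other genes of the same cells were taken from a list of 77 that leaves out the members. Like the members, this list was chosen with earlier results of these data known. Of 75 matched and 50 tested, 36 fell, 11 rose and 3 did not pass (edgeR adjusted p under 0.05), against 43.2% lower and 44.5% higher among all genes tested. Their median log2 fold change was -1.75, or -0.47 over the 27 with at least 5 CPM in 4 libraries and -2.62 over 74 with no filter. Of those 27, 17 fell and 10 rose. The summed level of the list went the other way, from 1690 to 1715 CPM per control library to 1859 to 1920 CPM per edited library. Of the 50 tested, 19 were left at under 5% of their control level. Genes near 0 counts in the edited libraries passed the filter on low counts through the control libraries alone. For such genes no call but lower was open. The 4 most abundant per length were lysosomal genes that T cells also express. Of these Ctss, a cathepsin, fell from 175 ± 1.26 to 81.0 ± 3.21 CPM, Ctsd, another cathepsin, rose from 153 ± 0.401 to 233 ± 7.04 CPM, and Psap, a precursor of sphingolipid activator proteins, rose from 506 ± 10.6 to 791 ± 9.28 CPM. Lamp1, a lysosomal membrane protein, was at 163 ± 1.92 and 165 ± 2.68 CPM and did not pass, though it was called higher with upper-quartile factors.

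The rest of that list ranged widely, and the examples here were chosen after their values were seen and carry no test. Among low ones, Clec4e, a lectin receptor, was at 15.6 ± 1.83 and 0.0731 ± 0.0513 CPM. Sirpa, the myeloid receptor for CD47, was at 8.86 ± 0.536 and 0.0798 ± 0.0415 CPM. Cx3cr1, a chemokine receptor of patrolling monocytes, was at 8.57 ± 0.479 and 0.0370 ± 0.0247 CPM. Higher in the edited libraries were Axl, a receptor kinase used to clear dying cells, at 2.05 ± 0.410 and 13.4 ± 0.274 CPM, and Ms4a6c at 7.03 ± 0.382 and 19.3 ± 0.810 CPM. Ccr2, the chemokine receptor of classical monocytes, was also higher there, at 11.2 ± 0.253 and 16.0 ± 0.594 CPM. Some genes known from tissue macrophages had few counts in the controls and others did not. Per control library, C1qa, a complement component, had 1 to 5 counts, Cd163, a scavenger receptor for haemoglobin, 6 to 8, and Mrc1, the mannose receptor, 0 to 4. Marco, a scavenger receptor, had 27 to 36 per control library and 0 in every edited one, and Vsig4 had 0 in all 8.

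**Figure D4:**
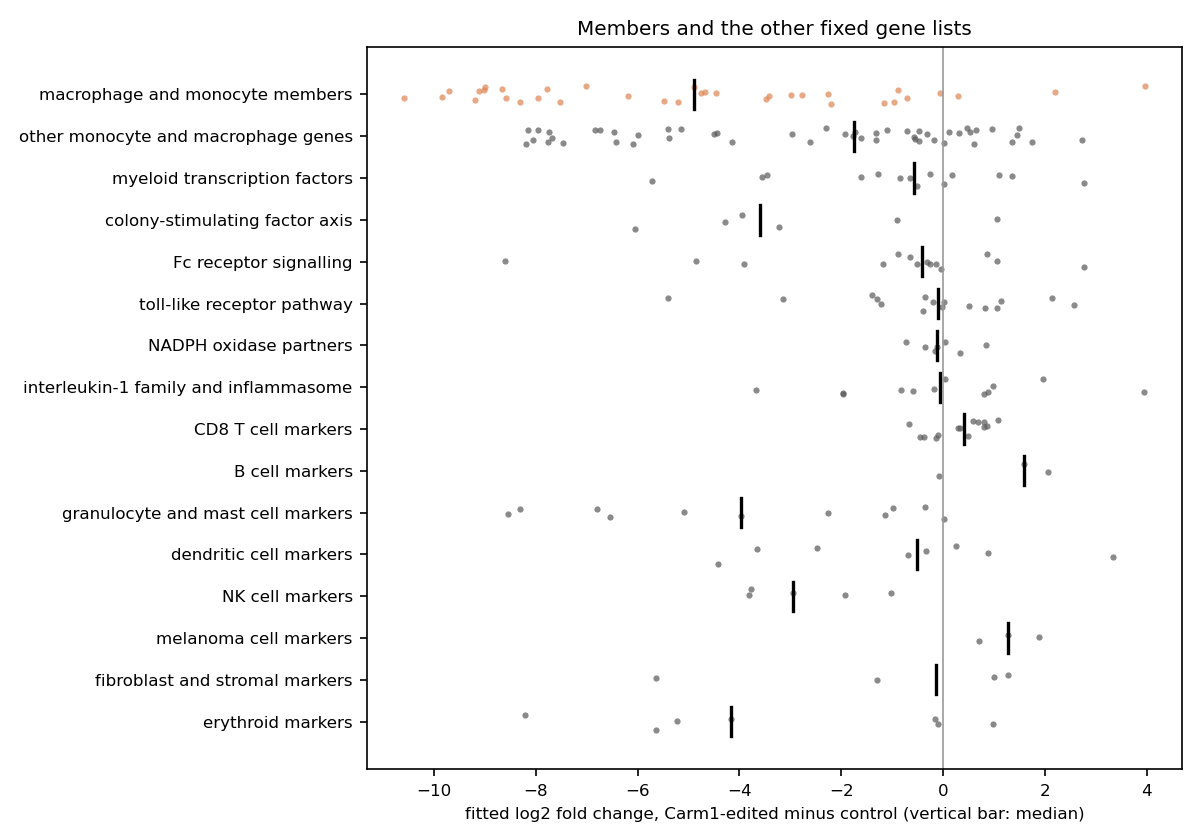
Fitted log2 fold change (Carm1-edited minus control) of every tested gene in the members' list, in orange, and in 15 other fixed lists, in grey. Vertical bars are list medians, -4.89 for the members, -1.75 for the other monocyte and macrophage genes, -3.96 for granulocyte and mast cell markers and 0.41 for CD8 T cell markers. Fitted values of genes near 0 counts depend on the model's prior count.

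Partners of the members were mixed, list by list, and each count below stands beside the same 43.2% lower and 44.5% higher among all genes. Of 6 tested genes of the colony-stimulating factor axis, 5 fell and 1 rose. The receptor chains Csf2rb and Csf2rb2, similar genes whose reads could be shared, fell from 13.8 ± 0.401 to 0.889 ± 0.186 CPM and from 8.79 ± 0.273 to 0.448 ± 0.122 CPM, while Csf2ra, the chain that binds the cytokine, rose from 5.49 ± 0.253 to 11.4 ± 0.755 CPM. Csf2, the ligand gene of Csf2ra, fell from 1.65 ± 0.243 to 0.875 ± 0.0210 CPM. Csf2rb and Csf2ra, 2 chains of 1 receptor, thus moved in opposite directions, as Cybb and Ncf1 did.

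Of 14 tested myeloid transcription factors, 9 fell, 4 rose and 1 did not pass. Of the most abundant, Stat3 fell from 453 ± 5.25 to 253 ± 6.04 CPM, and Rara, a retinoic acid receptor, fell from 65.7 ± 0.451 to 42.0 ± 1.26 CPM. Irf8, a partner of PU.1 that lymphocytes also use, was at 176 ± 2.82 and 148 ± 1.98 CPM, a log2 fold change of -0.25 that became -0.03, and did not pass, with upper-quartile factors. Spi1, by contrast, kept 2.62% of its level.

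Of 14 tested genes of Fc receptor signalling, 10 fell, 3 rose and 1 did not pass. The phosphatase gene Ptpn6 fell from 273 ± 5.30 to 121 ± 1.71 CPM. Syk, chosen after its values were seen, encodes the kinase that acts next after Fcer1g and Tyrobp. It was at 9.30 ± 0.382 and 0.319 ± 0.109 CPM.

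In the lists of the Toll-like receptor pathway and the oxidase partners, the direction of the median depended on the scaling. Of 16 tested genes of the Toll-like receptor pathway 7 fell and 6 rose, shares close to those of all genes, with a median of -0.10 that became 0.11 with upper-quartile factors. Tlr1, a partner of Tlr2, fell from 95.4 ± 0.741 to 39.0 ± 1.30 CPM, and Myd88, the adaptor both use, from 115 ± 2.35 to 49.0 ± 0.646 CPM. Unc93b1, a chaperone of endosomal Toll-like receptors, rose from 34.3 ± 1.34 to 203 ± 2.33 CPM. Tlr2 itself was at 7.63 and 7.34 CPM.

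Among 7 tested oxidase partners 4 fell, 2 rose and 1 did not pass. The median was -0.11. With upper-quartile factors 2 fell and 4 rose, with a median of 0.10. Rac2, the GTPase of the complex in blood cells, rose from 700 ± 8.99 to 1246 ± 8.77 CPM, and Ncf4, its p40phox subunit, from 53.3 ± 0.784 to 67.1 ± 2.34 CPM. Cyba, the membrane partner of Cybb, was at 275 ± 6.83 and 255 ± 14.9 CPM, a call that was lower with TMM and higher with upper-quartile factors. Of the oxidase genes named here, Cybb alone was close to 0 in the edited libraries.

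Among 12 tested interleukin-1 family and inflammasome genes, 6 were called lower and 5 higher, with a median of -0.07 that became 0.15 with upper-quartile factors. Casp1, the protease that matures interleukin-1 beta, rose from 5.24 ± 0.374 to 20.5 ± 1.13 CPM, and Pycard, the adaptor of inflammasomes, rose to 59.1 ± 3.23 CPM, a log2 fold change of 0.98. Gsdmd, the pore-forming gasdermin D, was at 77.1 ± 0.984 and 68.2 ± 0.901 CPM and did not pass with upper-quartile factors. The inflammasome sensor genes Nlrp3 and Nlrc4, chosen after their values were seen, were called lower, at log2 fold changes of -0.59 and -0.83. Aim2, another sensor gene of the list, was called higher, at a log2 fold change of 0.88.

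Most tested markers of granulocytes and all tested markers of natural killer cells were called lower, and those of erythroid cells were mixed. Of 11 tested granulocyte and mast cell markers 10 fell, 0 rose and 1 did not pass, and their summed level (17 genes) went from 34.0 to 36.5 CPM down to 9.61 to 10.6 CPM. Mpo, myeloperoxidase, fell from 11.9 ± 0.634 to 0.105 ± 0.0569 CPM and Elane, neutrophil elastase, from 2.58 ± 0.332 to 0.0240 ± 0.0277 CPM, but the basophil protease genes Mcpt8 and Prss34 were still at 2.16 ± 0.439 and 4.99 ± 0.418 CPM in the edited libraries. S100a8, S100a9, Ltf and Retnlg had 0 counts in all edited libraries. All 5 tested natural killer cell markers fell, and the sum of the list's 8 genes went from between 6.85 and 8.43 CPM to between 1.57 and 1.92 CPM. Of 7 tested erythroid markers 4, all globin genes, fell and 1 rose. The list summed to 6.48 to 6.79 and 2.18 to 2.62 CPM. Hbb-bs, a beta-globin, fell from 2.75 ± 0.232 CPM to 1 count in all. Epor was the one that rose, at a log2 fold change of 0.99, and Alas2 and Klf1 did not pass. Markers near 0 counts in the edited libraries passed the filter through the control libraries alone, so only a lower call was open to them. With at least 5 CPM in 4 libraries required, 2 granulocyte and mast cell markers were tested and 2 called lower. Of the natural killer and erythroid markers, 0 were then tested.

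Markers of B and dendritic cells were mixed. For B cells 3 of 10 markers were tested, 2 of which rose, and with no filter 4 of the 10 were called lower and 3 higher. Cd79b rose from 5.71 ± 0.248 to 17.1 ± 0.885 CPM. The summed B cell level was 7.09 to 7.55 and 19.6 to 20.9 CPM. Dendritic cell markers summed to 55.1 to 58.1 and 109.6 to 112.8 CPM, nearly all of it Ccr9 and Itgae, which T cells also express. In that list 5 of 8 tested genes fell and 3 rose, with a median of -0.51. Clec10a, Wdfy4 and Flt3, chosen after their values were seen, were at log2 fold changes of -4.42, -3.65 and -2.47. Besides Ccr9 and Itgae, Zbtb46 was called higher, at a log2 fold change of 0.89. Clec9a had 2 counts over the control libraries and 1 over the edited ones, and Cd209a had 0 in all 8. Of 4 tested stromal markers 2 fell and 2 rose, at summed levels of 5.54 to 7.09 and 5.54 to 6.25 CPM. What part a differing content of other cells plays in the members' levels was not tested.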

How the data were processed

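RNA of 4 LacZ-guide control and 4 Carm1-guide libraries was sequenced, and the authors deposited one table of whole-number counts per gene and library. Per the submitters' processing notes, RSEM and the mouse build mm10 were used. The version, aligner, annotation release and strand setting were not given in the sources used here. Gene symbols came from GENCODE M21, which matched 48970 of 49315 identifiers. The library kit, per the labels' protocols, does not mark strand.

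Counts were tested with edgeR 4.0.16 in R 4.3.3 (filterByExpr, TMM, robust quasi-likelihood F test, group only, Benjamini-Hochberg adjustment over 14970 genes, threshold 0.05). The scripts were tested on simulated data. CPM and TPM were computed from counts. Totals ran from 37556330 to 41439998, so 3 counts in a library correspond to 0.0717 to 0.0819 CPM. Counting intervals are 95% exact (scipy 1.17.1). Named were all 35 members, up to 4 genes of highest TPM per list, and Carm1; others are said to be chosen after their values were seen. Some of these genes are not reported here. The members and the lists were chosen with earlier results of these data known. Of 255 list symbols 252 matched. Alternatives in scaling were RLE and upper-quartile factors, computed in edgeR, and library totals. Further alternatives were other filters, the DESeq2 1.42.0 Wald test, glmTreat with a 1.5-fold threshold, a replicate block, and leaving out each library.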

Additional observations from a re-analysis of the deposited data

Results flagged for a closer look

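In 7 of 67 sets of 4 libraries tested over the members, the highest or lowest library lay farther from its neighbour than Dixon's 95% critical value allows, where chance alone gives about 1 in 20. Carm1-edited replicate 4 was the lowest for Itgax at 1.678 CPM, and it held the only counts of Clec7a (0.02505 CPM) and Chil1 (0.0501 CPM) among the edited libraries. Edited replicate 3 held the only count of Pla2g7, at 0.02498 CPM. Values of 1 or 2 counts stand apart from 0 by construction. Control replicate 4 was the lowest control library for Cd14 (2.81 CPM) and Arg1 (1.282 CPM), and control replicate 3 the highest for Il1b (6.51 CPM).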

How the results depend on the processing

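In the test across all genes, 6468 were called lower and 6667 higher, against 3444 and 3992 when tested against a 1.5-fold change. Of the other monocyte and macrophage genes 36 of 50 tested were called lower and 11 higher, at a median log2 fold change of -1.75. With at least 5 CPM in 4 libraries required, 17 of 27 were called lower and 10 higher, at a median of -0.47. The summed level of the members in the controls was 403.8 CPM, and 374.8 with upper-quartile factors, 382.0 with library totals, 280.2 without Ncf1 and 452.2 as TPM. In the edited libraries it was 621.4 CPM, and 618.1 with RLE, 669.5 with upper-quartile factors, 656.9 with library totals, 56.51 without Ncf1 and 472.2 as TPM. With each library left out in turn, 6474 to 6568 genes were called lower and 6646 to 6712 higher, and 35 to 38 of the list. With a replicate block the counts were 6420, 6611 and 36. Same-numbered libraries did not deviate together (correlations -0.308, -0.221, -0.161 and -0.429), and no library correlated best with its own number, so the numbers do not pair them. The number of members called lower was 31 under each scaling, the replicate block and each library left out. At 0 to 3 counts in a group, depth sets the bound on the level left.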
